A study of Mus musculus with 12 samples.

Results

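Mucin-type O-glycans are sugar chains built on serine and threonine residues of mucins and other secreted and membrane proteins as they pass through the Golgi. Polypeptide GalNAc transferases add the first sugar, core enzymes place the next one and fix the branching, other transferases lengthen the chain with galactose and N-acetylglucosamine, and sialyltransferases or fucosyltransferases cap its ends. In the small intestine these chains cover the gel-forming mucin of goblet cells and the membrane mucins of the brush border, where they hold water, shield the protein and serve bacteria as attachment sites and food. The genes described here come from the enzyme families of this assembly line, together with membrane mucins that carry its products, in the ileal mucosa of mice that differ at Erbb3. Not every enzyme of these families builds mucin-type chains, and some, such as B4galt6 and B3gnt5, are known for glycolipids. Erbb3 encodes a receptor tyrosine kinase of the epidermal growth factor receptor family that binds neuregulins.

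The genes were chosen by name and by measured level. A gene was taken if it was protein-coding, had at least 1 TPM, a relative abundance scaled for transcript length, in at least 6 of the 12 libraries, and had a symbol that begins with Galnt, B3gnt, B4galt, Gcnt, St3gal, St6galnac or C1galt1, or that is Fut2, Fut4, Muc1, Muc4, Muc13 or Muc20. Of 61 protein-coding genes with such names, 43 met the rule, out of 12605 genes at that level and 55891 in the table. They hold 42 symbols, because St6galnac2 stands under a pair of identifiers, whose reads the counting could have split. The level was read over all libraries together, without regard to genotype or litter, but a gene could pass through the group where it is high. Fut2 reached 1 TPM in 1 of 5 mice of litter B and in all 7 mice of litter A. No member sat at 6 or 7 libraries. The lowest were Fut2, Galntl6 and St6galnac4 with 8, and Galntl6 reached 1 TPM in all 6 ERBB3-dIE mice and in 2 Erbb3-FF mice. Just outside was St3gal5, with 5 libraries and a mean of 1.76 TPM. Muc1 and Muc20 averaged 0.10 and 0.0223 TPM and are not among the members. Sorted by name into roles, the members are 11 GalNAc transferases, 6 core enzymes, 13 chain-extending enzymes, 9 sialyltransferases, 2 fucosyltransferases and 2 membrane mucins. The chain-extending group includes the enzymes known for other glycans.

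Bulk RNA was sequenced from scraped ileal mucosa of 6 mice labelled ERBB3-dIE and 6 mice labelled Erbb3-FF, none of them described as treated, in a study of how ErbB3 bears on the barrier of the small intestine. By label, 3 ERBB3-dIE and 2 Erbb3-FF mice belong to litter B, and 3 ERBB3-dIE and 4 Erbb3-FF mice to litter A. The labels do not give strain, age, sex, the promoter driving any recombinase or the deleted part of the gene. Each mouse gave 1 library. A scraping holds epithelium with underlying immune and stromal cells.

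Erbb3 itself ran from 104 to 206 TPM in ERBB3-dIE mice and from 87.3 to 151 TPM in Erbb3-FF mice, a log2 difference of 0.16 ± 0.11 (SE; limma, adjusted p = 0.402). A TPM for the whole gene does not show whether 1 of its exons is missing, so it does not check the genotypes, which are taken from the labels. Markers of ileum were present in every library, with Fabp6, the ileal bile acid-binding protein, at 6459.8 to 45972 TPM and the bile acid transporter Slc10a2 at 48.2 to 249 TPM. The libraries held 12344 to 13364 genes at 1 TPM or more and correlated with each other at 0.878 to 0.955. Ribosomal sequence took 10.2% of the TPM in Erbb3-FF mouse 5 and 10.8% in Erbb3-FF mouse 6, and no more than 1.62% elsewhere. Genotypes were compared with limma on log2(TPM + 0.5) with litter as a term, and p-values were adjusted by Benjamini-Hochberg over all 12605 genes with a threshold of 0.05. A difference on this scale understates the change of low genes.

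The members' mean levels ran from 1.18 TPM for Galntl6 to 1209 TPM for Muc13. Of the 43, 36 had 1 TPM or more in every library, 29 averaged over 10 TPM and 9 averaged under 3 TPM. The membrane mucin Muc13 and the sialyltransferase St3gal4 stood far above the other members. In bulk tissue, fewer cells of a type and less RNA per cell cannot be told apart, and this holds for every difference given here.

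Between genotypes, 5 of the 43 members passed the threshold. St3gal6, St3gal3 and Galnt12 rose in ERBB3-dIE mice, and B4galt6 and Gcnt4 fell. Over all tested genes 1.66% were called higher and 3.7% lower, beside 6.98% and 4.65% of the members, so the share of members that fell is near the background and the larger share that rose rests on 3 genes. The members' median log2 difference was 0.14, with 26 positive and 17 negative, beside -0.00066 over all tested genes, of which 6294 were positive. At an unadjusted p under 0.05 stood 26 members, and 21.8% of all tested genes met that bound. A further 10 members had an adjusted p between 0.05 and 0.1 (limma). The share of all tested genes in that band is not given, so this count cannot be read alone. In the authors' deposited table, members higher numbered 12 and members lower 4 at an adjusted p under 0.05, where 5.07% of its 15490 genes with an adjusted p were higher and 7.51% lower. All 5 genes called here are among those 16 with the same sign, and 42 of the 43 members have the same sign in both.

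**Figure D1:**
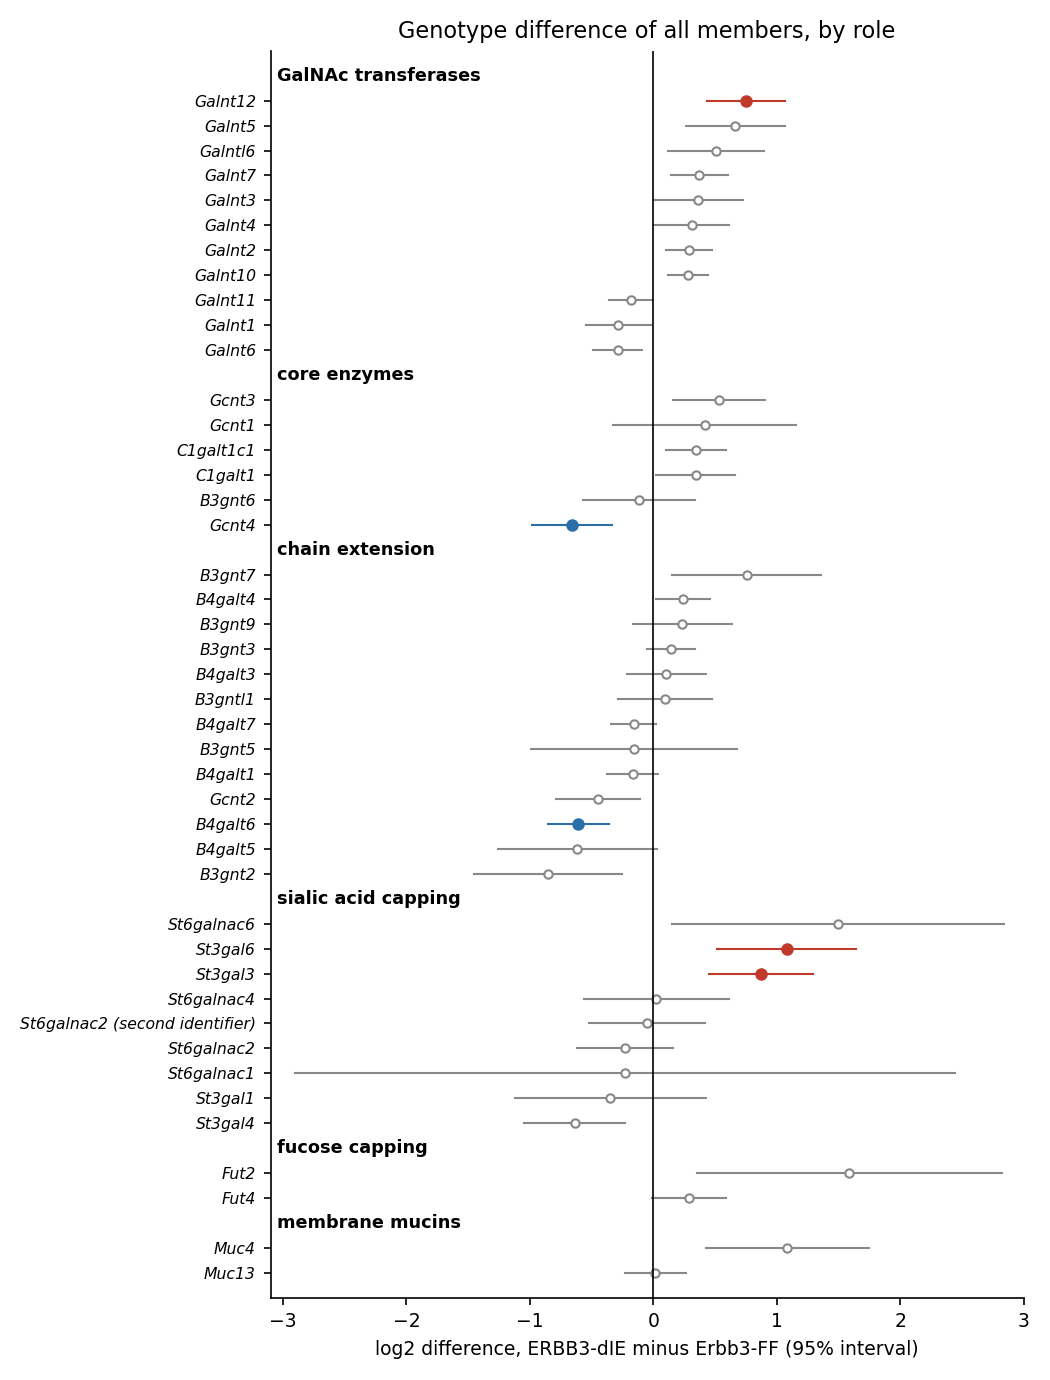
Log2 difference of all 43 members between ERBB3-dIE and Erbb3-FF mice (x axis; limma on log2(TPM + 0.5) with litter as a term, 6 mice each), grouped by role, with bars for the 95% interval. Red and blue filled points are the 5 members past the threshold, which are higher (red) or lower (blue) in ERBB3-dIE mice, and open points are the other 38.

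The scale on which TPM was set changed how many members were called. With TPM rescaled by the upper quartile, 9 members were higher and 2 lower, where 3.35% of all tested genes were higher and 3.84% lower. With median-of-ratios scaling 8 were higher and 2 lower, beside 2.46% and 4.2% of all tested genes. With mitochondrially encoded and ribosomal sequences removed, 4 were higher and 4 lower, beside 1.75% and 6.55%. The 5 named genes kept their direction and their call under all 3 scalings.

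The GalNAc transferases start each chain. Of the 11 members, Galnt12 was the only one past the threshold, yet all 11 had an unadjusted p under 0.05, and they pointed in opposite directions. Of all tested genes 21.8% met that bound. In ERBB3-dIE mice 8 were higher and 3 were lower, with a median log2 difference of 0.31. The 8 include Galntl6, at 1 TPM in 6 ERBB3-dIE and only 2 Erbb3-FF mice. It met the level filter through the genotype where it is high, so its direction is not independent of the filter. Galnt12, an isoform expressed in the gut that prefers peptides already carrying a GalNAc, had 32.5, 33.7 and 35.7 TPM in ERBB3-dIE mice of litter B, against 21.7 and 23.2 TPM in Erbb3-FF littermates. In litter A it had 50.6, 41.8 and 41.6 TPM in ERBB3-dIE mice, against 17.1, 33.0, 22.5 and 26.9 TPM in Erbb3-FF mice. Within each litter every ERBB3-dIE mouse was above every Erbb3-FF mouse, and across litters only Erbb3-FF mouse 4 reached into the ERBB3-dIE range. The means were 39.3 ± 6.80 TPM in ERBB3-dIE and 24.1 ± 5.41 TPM in Erbb3-FF mice (SD, n = 6 each), a log2 difference of 0.75 ± 0.14 (SE; 95% interval 0.43 to 1.07; limma, adjusted p = 0.0157). The exact 2-sided permutation p was 0.00433.

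The other GalNAc transferases did not pass the threshold. Galnt10, another isoform that acts on partly glycosylated peptides, ranged from 26.4 to 31.6 TPM in ERBB3-dIE mice, while Erbb3-FF mice spanned 21.9 to 25.9 TPM. Its log2 difference was 0.28 ± 0.07 (limma, adjusted p = 0.0526), and the exact permutation p of 0.0022 is the smallest that 6 against 6 mice can give. Galnt2, a widely expressed initiating isoform, had 10.1 to 13.0 TPM in ERBB3-dIE mice, against 8.54 to 9.57 TPM in Erbb3-FF mice (log2 difference 0.29, adjusted p = 0.0734). Galnt10 and Galnt2 were the only members whose TPM ranges did not overlap between genotypes, and both were higher in ERBB3-dIE mice. Over all tested genes 1.02% were separated in that way as higher and 1.43% as lower. Galnt5 averaged 6.43 ± 1.83 TPM in ERBB3-dIE and 4.06 ± 1.14 TPM in Erbb3-FF mice, and the glycopeptide-preferring Galnt7 averaged 49.5 ± 6.53 TPM in ERBB3-dIE and 39.2 ± 6.17 TPM in Erbb3-FF mice. Their adjusted p-values were 0.0598 and 0.061. The authors' deposited test did call Galnt10 (adjusted p = 1.63e-05), Galnt2 (0.0107), Galnt5 (0.000808) and Galnt7 (0.00239) higher. None of the remaining GalNAc transferases without a call here passed in it.

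The highest GalNAc transferases pointed the other way. Galnt6 had 90.2, 90.6 and 74.6 TPM in ERBB3-dIE mice of litter B, against 97.2 and 98.7 TPM in Erbb3-FF mice. Litter A gave 65.3, 63.9 and 76.2 TPM in ERBB3-dIE mice, against 91.8, 83.1, 76.7 and 98.2 TPM in Erbb3-FF mice. The genotypes did not overlap within either litter but did across litters, and the log2 difference of -0.29 ± 0.09 did not pass (limma, adjusted p = 0.0834). Galnt1, a broadly expressed isoform, averaged 56.9 ± 9.67 TPM in ERBB3-dIE and 69.3 ± 7.22 TPM in Erbb3-FF mice (adjusted p = 0.201).

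The summed TPM of all 11 was 354 ± 26.1 in ERBB3-dIE and 333 ± 27.5 in Erbb3-FF mice, a gap smaller than the spread within a genotype. The make-up of that total differed more than its size. Galnt6 and Galnt1 together held 37.8 ± 5.21% of it in ERBB3-dIE mice (31.0 to 44.2%) and 48.3 ± 3.48% in Erbb3-FF mice (42.5 to 53.1%). Galnt12 held 11.1 ± 1.55% in ERBB3-dIE and 7.19 ± 1.20% in Erbb3-FF mice. These shares are descriptions without a test, and the pair was taken because it has the highest means.

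**Figure D2:**
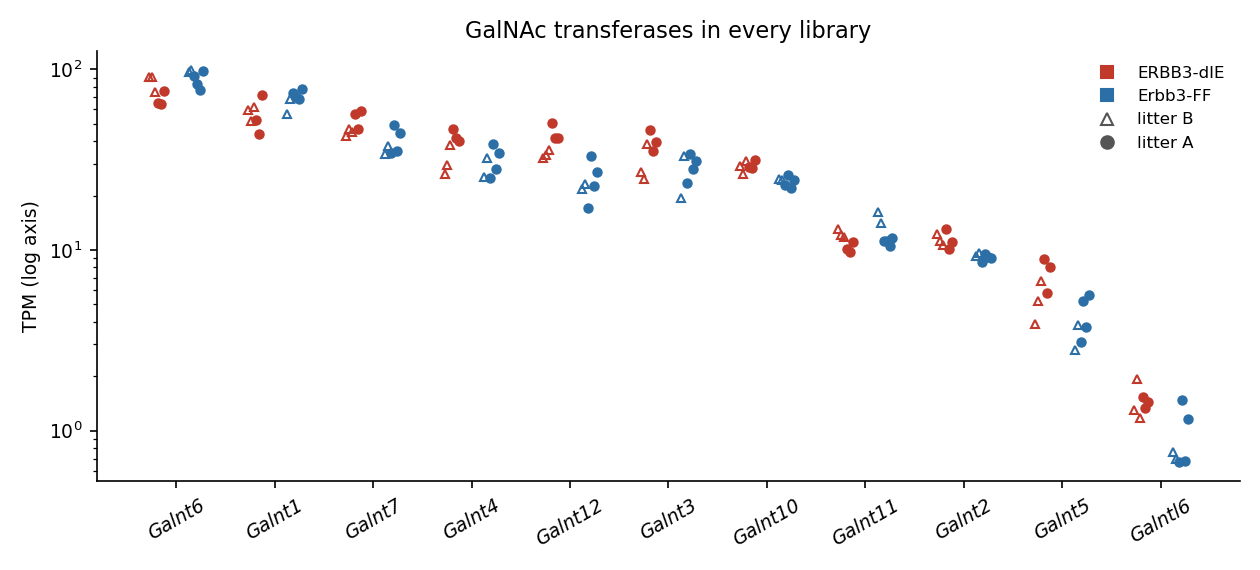
TPM of the 11 GalNAc transferases (log y axis) in each of 12 libraries, ordered by mean level, with ERBB3-dIE mice in red left of Erbb3-FF mice in blue, triangles for litter B and circles for litter A. Galnt12, Galnt10 and Galnt2 sit higher in ERBB3-dIE mice, and Galnt6 sits lower within each litter.

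The core enzymes decide the branching of the chain, and 1 of 6 members, Gcnt4, fell in ERBB3-dIE mice. Gcnt4 makes the core 2 branch. It had 12.9, 16.8 and 17.2 TPM in ERBB3-dIE mice of litter B, against 19.4 and 26.5 TPM in Erbb3-FF mice. In litter A it had 12.3, 8.86 and 13.7 TPM in ERBB3-dIE mice, against 22.9, 19.2, 15.4 and 21.4 TPM in Erbb3-FF mice. The genotypes were apart within each litter, and across litters only Erbb3-FF mouse 5, at 15.4 TPM, lay within the ERBB3-dIE range. The means were 13.6 ± 3.10 TPM in ERBB3-dIE and 20.8 ± 3.77 TPM in Erbb3-FF mice, a log2 difference of -0.66 ± 0.15 (95% interval -0.98 to -0.33; limma, adjusted p = 0.0288; exact permutation p = 0.00649). Gcnt3, which makes core 2 and core 4 branches in mucin-secreting tissue, pointed the opposite way with 49.6 ± 9.84 TPM in ERBB3-dIE and 35.4 ± 8.10 TPM in Erbb3-FF mice (log2 difference 0.53, adjusted p = 0.0935). C1galt1c1, the chaperone Cosmc that the core 1 synthase needs, was the highest of the group and had 47.2, 35 and 47.4 TPM in ERBB3-dIE mice of litter B, against 32.9 and 41.2 TPM in Erbb3-FF mice. In litter A it had 56.7, 49.5 and 59.1 TPM in ERBB3-dIE mice, against 39.1, 43.3, 35.4 and 44.8 TPM in Erbb3-FF mice. The genotypes were apart in litter A and overlapped in litter B (log2 difference 0.34, adjusted p = 0.0941). The core 1 synthase C1galt1 had a log2 difference of 0.34 (adjusted p = 0.193), and the core 3 enzyme B3gnt6 one of -0.12 (adjusted p = 0.778). Gcnt4 held 8.51 ± 2.66% of the core enzymes' summed TPM in ERBB3-dIE mice and 15.5 ± 3.04% in Erbb3-FF mice.

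Among the 13 chain-extending enzymes 1 passed the threshold, and the median log2 difference was -0.16. B4galt6, a galactosyltransferase best known for making lactosylceramide, a glycolipid, fell in ERBB3-dIE mice. It had 17.2, 20.5 and 16.2 TPM in ERBB3-dIE mice of litter B, against 21.1 and 25.4 TPM in Erbb3-FF mice. Litter A gave 13.2, 11.3 and 12.4 TPM in ERBB3-dIE mice, against 23.9, 21.0, 18.4 and 22.4 TPM in Erbb3-FF mice. All ERBB3-dIE mice were below all Erbb3-FF mice of their litter, and the gap was wider in litter A. The means were 15.1 ± 3.49 TPM in ERBB3-dIE and 22 ± 2.45 TPM in Erbb3-FF mice, a log2 difference of -0.61 ± 0.11 (95% interval -0.85 to -0.36; limma, adjusted p = 0.0138; exact permutation p = 0.00433). B3gnt3, which extends core 1 chains, was the highest of the group and had 81.2, 68.2 and 78.5 TPM in ERBB3-dIE mice of litter B, against 61.8 and 71.6 TPM in Erbb3-FF mice. Litter A gave 86.8, 69.5 and 80.2 TPM in ERBB3-dIE mice, against 70.7, 81.7, 65.5 and 73.3 TPM in Erbb3-FF mice. The genotypes overlapped in both litters, with a log2 difference of 0.14 (adjusted p = 0.378). B3gnt2, a main enzyme of poly-N-acetyllactosamine, was low, at 1.80 ± 0.803 TPM in ERBB3-dIE and 3.51 ± 1.01 TPM in Erbb3-FF mice (log2 difference -0.85, adjusted p = 0.0946). The group's summed TPM was 286 ± 26.3 in ERBB3-dIE and 284 ± 23.1 in Erbb3-FF mice.

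The sialyltransferases cap chains with sialic acid, and 2 of 9 rose in ERBB3-dIE mice. Both add sialic acid to galactose in alpha-2,3 linkage, at the ends of galactose and N-acetylglucosamine chains. St3gal6 had 13.4, 13.6 and 18.9 TPM in ERBB3-dIE mice of litter B, against 10.8 and 8.13 TPM in Erbb3-FF mice. In litter A it had 27.6, 23.5 and 19.3 TPM in ERBB3-dIE mice, against 5.57, 15.7, 10.5 and 5.99 TPM in Erbb3-FF mice. The genotypes were apart within each litter, and Erbb3-FF mouse 4 alone exceeded the lowest ERBB3-dIE mice. The means were 19.4 ± 5.56 TPM in ERBB3-dIE and 9.46 ± 3.78 TPM in Erbb3-FF mice, a log2 difference of 1.08 ± 0.26 (95% interval 0.52 to 1.64; limma, adjusted p = 0.0355; exact permutation p = 0.00649).

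St3gal3 was lower in level. It had 2.79, 2.24 and 3.08 TPM in ERBB3-dIE mice of litter B, against 1.71 and 2.00 TPM in Erbb3-FF mice. Litter A gave 5.66, 5.57 and 4.49 TPM in ERBB3-dIE mice, against 1.25, 2.14, 2.66 and 2.32 TPM in Erbb3-FF mice. The 3 ERBB3-dIE mice of litter A were far above all others, and in litter B the gap between genotypes was 0.44 on the log2 scale, against 1.17 in litter A. The means were 3.97 ± 1.47 TPM in ERBB3-dIE and 2.01 ± 0.493 TPM in Erbb3-FF mice, a log2 difference of 0.87 ± 0.19 (95% interval 0.45 to 1.29; limma, adjusted p = 0.0263; exact permutation p = 0.00649).

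St3gal4, a sialyltransferase with the same linkage, supplied 85.8 ± 10.6% of the sialyltransferases' summed TPM in ERBB3-dIE mice and 93.1 ± 1.45% in Erbb3-FF mice. It had 795, 639 and 747 TPM in ERBB3-dIE mice of litter B, against 919 and 893 TPM in Erbb3-FF mice. In litter A it had 481, 358 and 736 TPM in ERBB3-dIE mice, against 1171, 937, 723 and 858 TPM in Erbb3-FF mice. The genotypes were apart in litter B and overlapped in litter A, and the log2 difference of -0.64 ± 0.19 did not pass (limma, adjusted p = 0.0725). In the authors' deposited table St3gal4 had a log2 fold change of -0.57 with an adjusted p of 0.0100. The summed TPM of all 9, St3gal4 included, was 719.7 ± 136 in ERBB3-dIE and 983 ± 142 in Erbb3-FF mice, while the other 8 sialyltransferases summed to 93.6 ± 60.1 TPM in ERBB3-dIE and 66.5 ± 7.25 TPM in Erbb3-FF mice.

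**Figure D3:**
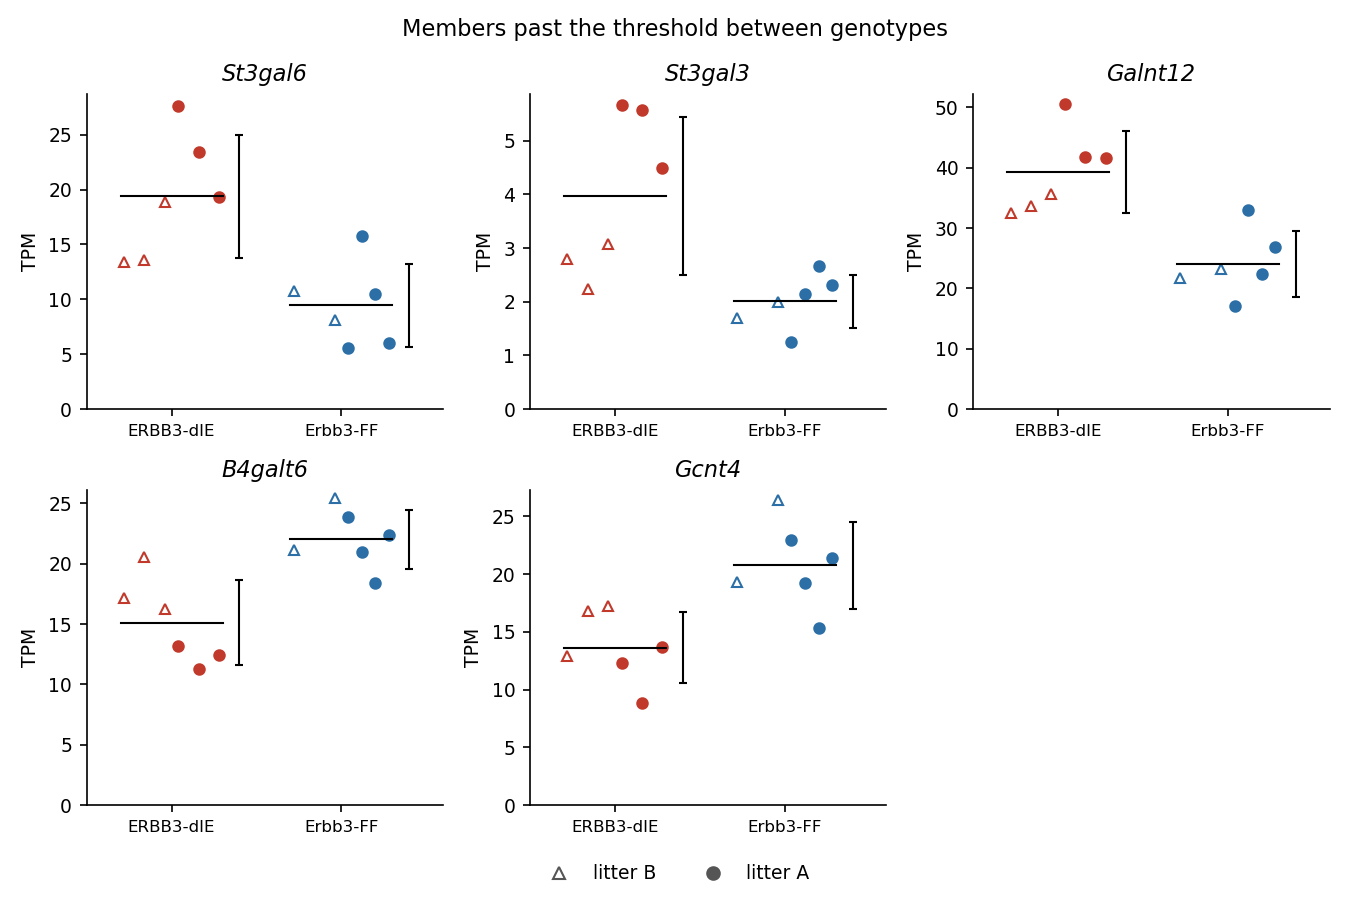
TPM (y axis, from 0) of the 5 members past the threshold between genotypes in each of 12 libraries, with ERBB3-dIE mice in red left of Erbb3-FF mice in blue and triangles for litter B, circles for litter A. Horizontal lines are group means and bars the SD over 6 mice, and within each litter no ERBB3-dIE point overlaps the Erbb3-FF points of its litter.

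Separation inside both litters was more frequent than the calls. In both litters every ERBB3-dIE mouse was above every Erbb3-FF mouse for Galnt10, Galnt12, Galnt2, Galnt5, Muc4, St3gal3 and St3gal6, and below for Galnt6, B4galt6 and Gcnt4. These are 7 and 3 of 43 members, where 2.46% of all tested genes were separated as higher and 4.75% as lower.

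The stretches just upstream of annotated starts are shown for called members whose RefSeq promoters were to hand (GRCm38.p6, 250 bases up to the start, 5′ to 3′ on the gene's strand), since St3gal6 and St3gal3 moved together and Gcnt4 moved against them. Capitals mark the E-box CAGCTG. St3gal6 is shown at both annotated starts, chr16:58524254-58524503 and chr16:58523427-58523676 on the minus strand. St3gal3 is at chr4:118134947-118135196 on the minus strand. Gcnt4 is also shown at both annotated starts, chr13:96924094-96924343 and chr13:96924463-96924712 on the plus strand.
St3gal6, upstream start: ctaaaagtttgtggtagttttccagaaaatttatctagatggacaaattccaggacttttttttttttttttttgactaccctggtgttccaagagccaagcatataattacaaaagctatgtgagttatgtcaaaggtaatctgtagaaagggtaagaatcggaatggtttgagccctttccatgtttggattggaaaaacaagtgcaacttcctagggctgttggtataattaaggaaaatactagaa
St3gal6, downstream start: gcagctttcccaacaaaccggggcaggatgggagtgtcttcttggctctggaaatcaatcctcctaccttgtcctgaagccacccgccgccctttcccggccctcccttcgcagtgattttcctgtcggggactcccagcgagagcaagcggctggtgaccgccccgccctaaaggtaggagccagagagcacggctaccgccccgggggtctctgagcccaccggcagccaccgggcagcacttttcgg
St3gal3: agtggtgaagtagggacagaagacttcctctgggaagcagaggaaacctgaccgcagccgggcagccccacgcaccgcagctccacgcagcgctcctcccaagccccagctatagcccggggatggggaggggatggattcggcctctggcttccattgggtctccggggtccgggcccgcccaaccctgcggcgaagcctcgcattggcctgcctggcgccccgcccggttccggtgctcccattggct
Gcnt4, upstream start: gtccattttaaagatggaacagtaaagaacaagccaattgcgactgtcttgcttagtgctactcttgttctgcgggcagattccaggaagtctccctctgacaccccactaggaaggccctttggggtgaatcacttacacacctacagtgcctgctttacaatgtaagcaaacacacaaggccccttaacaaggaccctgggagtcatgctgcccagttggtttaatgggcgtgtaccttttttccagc
Gcnt4, downstream start: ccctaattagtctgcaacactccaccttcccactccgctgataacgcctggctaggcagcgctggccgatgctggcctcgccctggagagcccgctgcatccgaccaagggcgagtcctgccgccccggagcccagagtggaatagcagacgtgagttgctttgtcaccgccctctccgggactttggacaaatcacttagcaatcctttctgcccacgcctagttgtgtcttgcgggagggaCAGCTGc

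The promoters differ in composition. The upstream St3gal6 window had 34.8% G and C and 1 CpG, the downstream one 64.4% and 16 CpGs, and St3gal3 68.4% and 18 CpGs. The upstream Gcnt4 window had 48.8% and 3 CpGs and no E-box match, and the downstream one 61.2% and 15 CpGs. Over all 32851 promoters in the RefSeq table the medians were 52.4% and 6 CpGs. Of 42 member symbols 29 matched the table, with 38 starts. On either strand the E-box CAGCTG was found in 4 of those 38 windows, which belong to B3gnt5, Galnt5, Gcnt2 and the downstream start of Gcnt4, and in 13.0% of all promoters. CAAAGTCCA, a site of the kind bound by HNF4, was found in 2 of 38, at B3gnt3 and Muc13, and in 0.384% of all promoters. TTTATGG, of the kind bound by CDX factors, was in 0 of 38 and in 2.43% of all promoters. The motifs do not overlap one another in their letters, and a match is only a description of the window.

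The membrane mucins and fucosyltransferases held no call between genotypes. Muc13, a transmembrane mucin of the intestinal surface, had 966, 1032 and 1115 TPM in ERBB3-dIE mice of litter B, against 1107 and 977 TPM in Erbb3-FF mice. Litter A gave 1511, 1048 and 1503 TPM in ERBB3-dIE mice, against 1265, 1419, 1133 and 1438 TPM in Erbb3-FF mice. The genotypes overlapped in both litters, and the log2 difference was 0.01 with a 95% interval of -0.23 to 0.26 (limma, adjusted p = 0.956). Muc4, a transmembrane mucin known in rat to bind the ErbB2 receptor, had 4.96, 5.34 and 5.93 TPM in ERBB3-dIE mice of litter B, against 2.78 and 4.72 TPM in Erbb3-FF mice. In litter A it had 33.2, 16.5 and 14 TPM in ERBB3-dIE mice, against 3.55, 10.6, 7.85 and 6.66 TPM in Erbb3-FF mice. It was higher in ERBB3-dIE mice in both litters, by 1.09 ± 0.30 on the log2 scale, without passing (limma, adjusted p = 0.0613). In the authors' deposited table Muc4 had a log2 fold change of 0.96 with an adjusted p of 0.00112.

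Fut2, the alpha-1,2-fucosyltransferase that puts H antigen on intestinal glycoproteins, had the widest litter difference of the 43 members. It had 0.876, 0.972 and 6.85 TPM in ERBB3-dIE mice of litter B, against 0.727 and 0.960 TPM in Erbb3-FF mice. Litter A gave 84.4, 23.3 and 40.8 TPM in ERBB3-dIE mice, against 2.75, 18.0, 10.8 and 16.1 TPM in Erbb3-FF mice. The litters overlapped only through ERBB3-dIE mouse 3 of litter B, at 6.85 TPM, and Erbb3-FF mouse 3 of litter A, at 2.75 TPM. The log2 difference between genotypes was 1.59 ± 0.56 (95% interval 0.35 to 2.82) and did not pass (limma, adjusted p = 0.125). Between litters Fut2 was 2.08 ± 2.67 TPM in litter B (n = 5) and 28.0 ± 27.5 TPM in litter A (n = 7), a log2 difference of -3.58 ± 0.57 (limma with genotype as a term, adjusted p = 0.0153). Fut2 met the level filter only through litter A, where it is high, and with no filter its litter difference had an adjusted p of 0.036 (limma). Fut4, an alpha-1,3-fucosyltransferase, averaged 10.4 TPM in ERBB3-dIE and 8.73 TPM in Erbb3-FF mice (adjusted p = 0.246).

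Litter B was set against litter A in the same fit, and 6 members passed. Galnt11 was higher in litter B, and Fut2, St6galnac6, Muc4, B3gnt7 and St3gal1 were lower. Over all tested genes 7.16% were called higher and 1.4% lower in litter B. The members' median log2 difference was -0.22, with 29 negative, while that of all tested genes was 0.05. St3gal1, which caps core 1, had 1.38, 2.09 and 5.09 TPM in ERBB3-dIE and 5.66 and 4.70 TPM in Erbb3-FF mice of litter B. In litter A it had 9.56, 8.82 and 13.1 TPM in ERBB3-dIE and 4.24, 15.2, 12.8 and 11.7 TPM in Erbb3-FF mice. Its litter difference was -1.40 ± 0.36 (limma, adjusted p = 0.0385), and its genotype difference was -0.35 (adjusted p = 0.609).

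St6galnac6, a sialyltransferase of the alpha-2,6 kind that also acts on glycolipids, had 1.99, 1.20 and 4.75 TPM in ERBB3-dIE and 2.48 and 2.93 TPM in Erbb3-FF mice of litter B. Litter A gave 54.2, 45.2 and 20.2 TPM in ERBB3-dIE and 1.50, 14, 5.87 and 5.77 TPM in Erbb3-FF mice. The litter difference was -2.38 ± 0.62 (limma, adjusted p = 0.0407). The genotype difference of 1.50 did not pass here (adjusted p = 0.179), and in the authors' deposited table it was 1.25 with an adjusted p of 0.0264.

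B3gnt7, which extends chains that can carry sulfate, had 19.8, 12.6 and 28.4 TPM in ERBB3-dIE and 9.47 and 8.38 TPM in Erbb3-FF mice of litter B. In litter A it had 48.9, 19.6 and 43.4 TPM in ERBB3-dIE and 16.5, 28.4, 20.8 and 32.6 TPM in Erbb3-FF mice. Galnt11, the lone member higher in litter B, had 13.0, 12 and 11.8 TPM in ERBB3-dIE and 16.3 and 14 TPM in Erbb3-FF mice of that litter. Litter A gave 10.1, 9.74 and 11.1 TPM in ERBB3-dIE and 11.2, 11.2, 10.5 and 11.7 TPM in Erbb3-FF mice. The litter differences were -1.08 ± 0.28 for B3gnt7 (limma, adjusted p = 0.0391), -1.32 ± 0.31 for Muc4 (adjusted p = 0.0298) and 0.33 ± 0.08 for Galnt11 (adjusted p = 0.0369). Erbb3-FF mouse 3 was the lowest of litter A for Fut2, St6galnac6, Muc4, St3gal1 and B3gnt7. Without that library 5 members were higher and 10 lower in litter B, where 15.7% of all tested genes were higher and 8.54% lower. The Fut2 call held with each library left out in turn, and each of the other 5 litter calls was lost in 9 to 11 of those 12 fits.

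**Figure D4:**
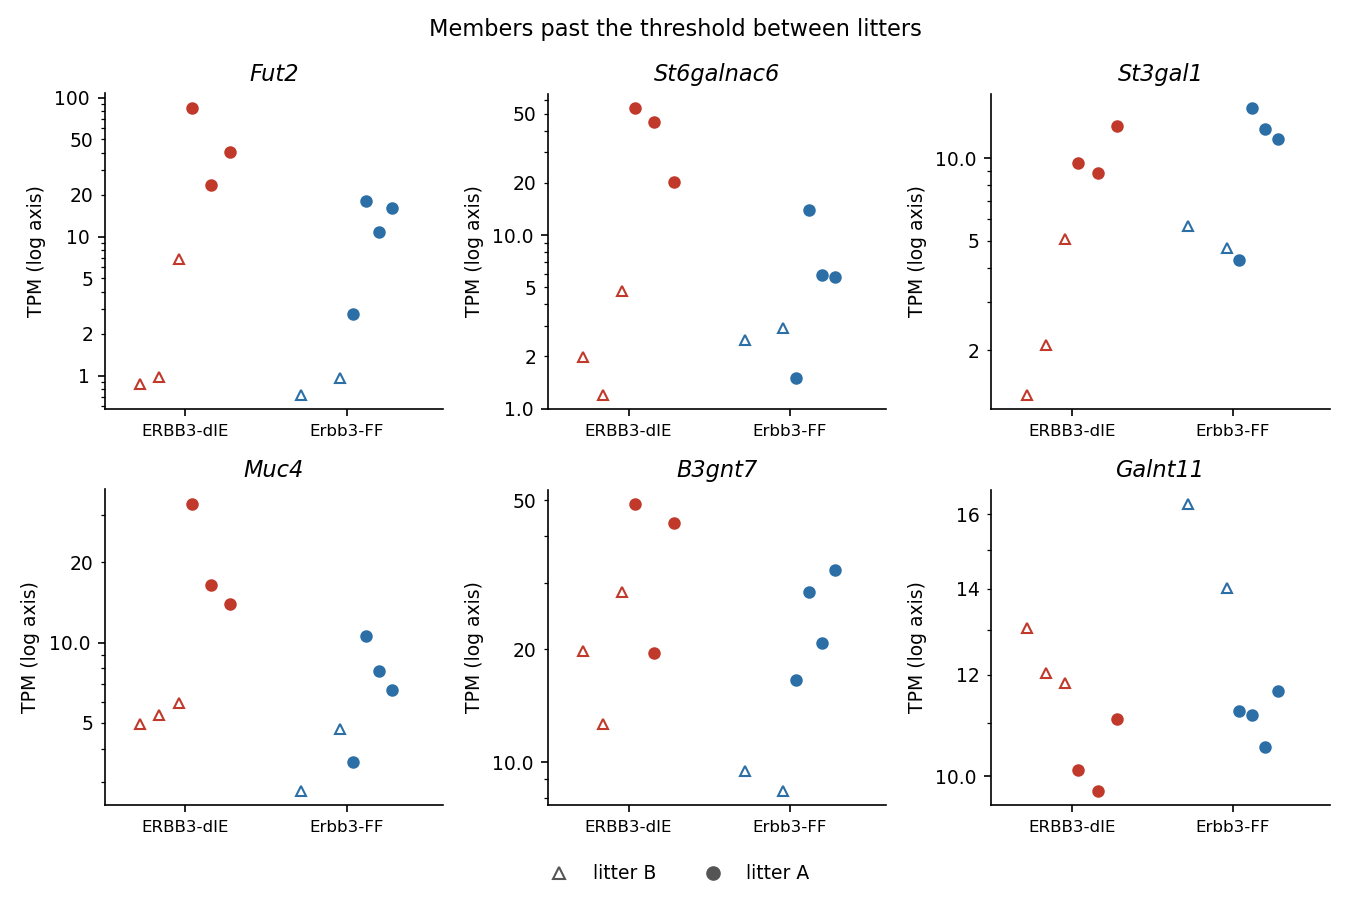
TPM (log y axes) of the 6 members past the threshold between litters in each of 12 libraries, with ERBB3-dIE mice in red left of Erbb3-FF mice in blue, and triangles for litter B left of circles for litter A. For all but Galnt11 the lowest point is a triangle and the highest a circle, with some overlap, and for Galnt11 all triangles are above all circles.

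The genotype difference was also taken within each litter. The log2 differences in litter B and litter A were 0.58 and 0.87 for Galnt12, 0.66 and 1.37 for St3gal6, 0.44 and 1.17 for St3gal3, -0.37 and -0.77 for B4galt6 and -0.53 and -0.75 for Gcnt4. All 5 were nearer 0 in litter B. The difference between litters was itself tested by the interaction term of limma, which called no member and 0% of all tested genes. In simulated data that test recovered 0.4%, 17.2% and 64% of genes changed by 0.5, 1 and 2 on the log2 scale. The simulation gave each gene independent normal noise and changed few genes, unlike the real libraries, so its rates are only a rough guide. In it most differences of 1 or less went uncalled, and the lack of a call here does not show that the litters are alike. At an unadjusted p under 0.05 stood 6 members and 1174 of all tested genes, and the lowest adjusted p of a member was 0.226.

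**Figure D5:**
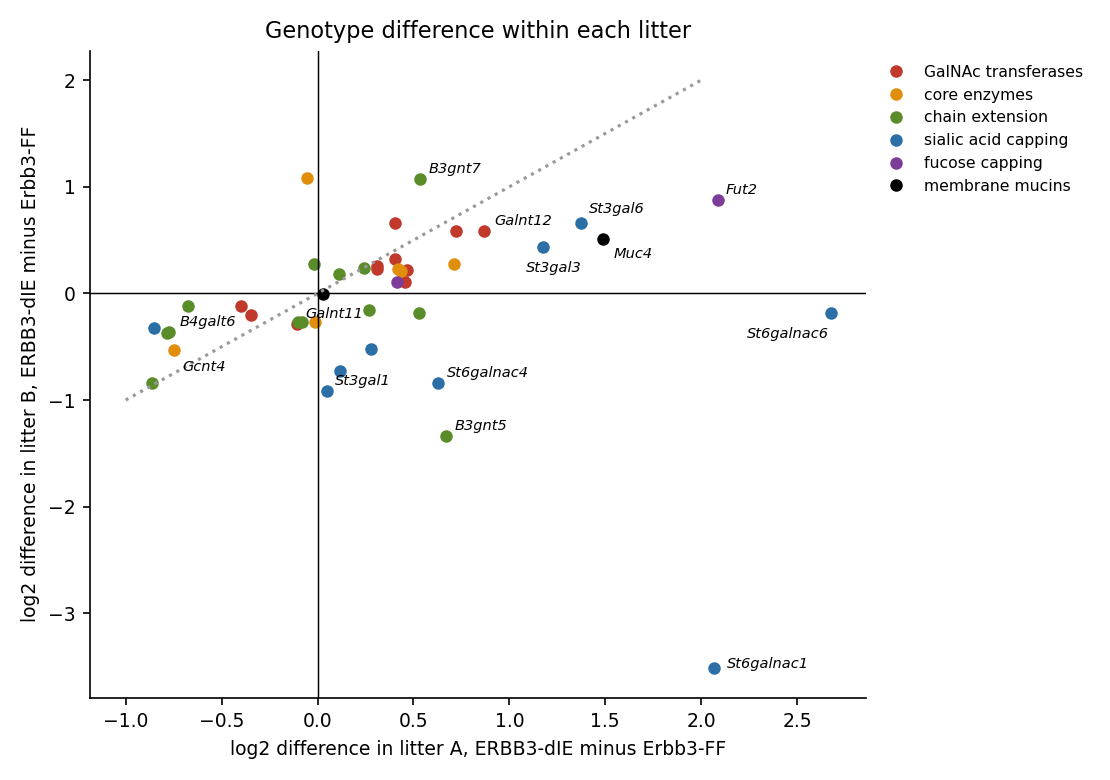
Log2 difference between ERBB3-dIE and Erbb3-FF mice in litter A (x axis) and litter B (y axis) for all 43 members, coloured by role, with a dotted line where both are equal. The members past the genotype threshold lie in the quadrants of equal sign, and St6galnac1, St6galnac6, B3gnt5 and St6galnac4 lie where the signs differ.

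Some pairs of members moved together over the 12 libraries and others moved in opposite directions. Spearman correlations are given as descriptions, since the points share genotype, litter and library composition. Over 903 pairs of members the median was 0.13, and the lowest was B4galt6 with St3gal3 at -0.91. The median over pairs of all tested genes is not given. The highest included Fut4 with Galnt3 at 0.94, Fut2 with Muc4 at 0.94, Galnt12 with Galnt5 at 0.93 and B4galt6 with Gcnt4 at 0.93. St3gal6, the member with the greatest called difference, followed Galnt12 at 0.92 and ran against B4galt6 at -0.87 and Galnt6 at -0.85. Of all tested genes the most like St3gal6 were Sec11c (0.97), Slc50a1 (0.96), Carhsp1 (0.96), Lmf1 (0.95) and Atp6v1g2 (0.94). The most opposite were Gk (-0.94), Mtf1, Syde1 and Tmigd1 (-0.93 each) and Enpep (-0.92).

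Markers of other cell types moved with the genotypes. Of 12 goblet cell markers 7 rose in ERBB3-dIE mice and 0 fell, and their summed TPM was 34079 to 68651 in ERBB3-dIE mice, above the 19159 to 31160.0 of Erbb3-FF mice. Of 11 tested enterocyte markers 5 fell and 0 rose, with sums of 4852 to 19118 TPM in ERBB3-dIE mice, against 10672 to 26125 TPM in Erbb3-FF mice. Lct, a further enterocyte marker, was at most 1.99 TPM. Of 8 T cell markers 3 rose (175 to 656 TPM in ERBB3-dIE and 109 to 203 TPM in Erbb3-FF mice, summed), and of 10 enteroendocrine markers 3 rose (766 to 1062 TPM in ERBB3-dIE and 541 to 717 TPM in Erbb3-FF mice). Of 10 Paneth cell markers 2 rose (5529.9 to 14932 TPM in ERBB3-dIE and 3911 to 16961 TPM in Erbb3-FF mice). Of 7 tested smooth muscle markers 1 fell, and no tested tuft, stem and cycling, B cell, stromal, endothelial or macrophage marker passed (limma). Summed B cell markers were 5.86 to 17.1 TPM in ERBB3-dIE and 4.62 to 316 TPM in Erbb3-FF mice. With the goblet marker level as a covariate, no member was called higher or lower (limma), nor was any of the 12605 genes, and 2 members had an unadjusted p under 0.05. In that fit the log2 differences were -0.09 ± 0.49 (SE) for Galnt12, 0.50 ± 0.97 for St3gal6, 1.07 ± 0.74 for St3gal3, -1.06 ± 0.56 for Gcnt4 and -1.11 ± 0.41 for B4galt6, so that the errors grew for all 5 while 3 of the differences were no smaller than without the covariate. With the enterocyte marker level as a covariate, no member was called and the 5 differences were nearer 0, at 0.37 ± 0.16 for Galnt12, 0.37 ± 0.28 for St3gal6, 0.29 ± 0.17 for St3gal3, -0.40 ± 0.20 for Gcnt4 and -0.37 ± 0.14 for B4galt6. The goblet marker sums did not overlap between genotypes, so that fit cannot tell the marker level from the genotype. Neither fit tests a cause, and the part of these cell types in the results was not tested.

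Genes next to the members in the same pathway were counted from lists. Of 8 tested secreted mucins and mucus proteins 4 rose and 0 fell, namely Klk1 (log2 difference 1.13), Agr2 (1.07), Muc2 (0.89) and Sytl2 (0.64). Muc2, the gel-forming mucin that carries most of these chains in the gut, averaged 758 ± 155 TPM in ERBB3-dIE and 426 ± 109 TPM in Erbb3-FF mice (limma, adjusted p = 0.0125). All 4 are also goblet cell markers in the list above. Of 6 tested other membrane mucins and glycocalyx genes none passed (limma), and the lowest p belonged to Cdhr5, at 730 ± 238 TPM in ERBB3-dIE and 961 ± 223 TPM in Erbb3-FF mice (adjusted p = 0.0798).

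Of 9 tested sulfation genes 1 rose and 1 fell. Chst4, which sulfates N-acetylglucosamine, averaged 24.4 ± 1.75 TPM in ERBB3-dIE and 15.0 ± 3.17 TPM in Erbb3-FF mice (log2 difference 0.72; limma, adjusted p = 0.0116). Gal3st2, which sulfates galactose, averaged 128 ± 51.5 TPM in ERBB3-dIE and 179 ± 55.3 TPM in Erbb3-FF mice (-0.70, adjusted p = 0.038). Of 12 other terminal glycosyltransferases, B4galnt3, which caps chains with N-acetylgalactosamine, alone passed, at 5.46 ± 0.601 TPM in ERBB3-dIE and 9.15 ± 0.961 TPM in Erbb3-FF mice (-0.73, adjusted p = 0.00304). Of 23 nucleotide sugar genes 16 were positive and 1, the fucose salvage gene Fpgt, fell, at 13.7 ± 2.15 TPM in ERBB3-dIE and 19.4 ± 1.30 TPM in Erbb3-FF mice (-0.51, adjusted p = 0.0262). Of 11 N-glycan branching genes none passed (limma) and 1 was positive, with a median of -0.24, and Mgat4c had the lowest p (-0.48, adjusted p = 0.0858). Of 8 genes of interleukin-22 and STAT3 signalling, which is known to act on Fut2 in mouse intestine, 3 fell and 0 rose. These were Il18 (-1.31, adjusted p = 0.0436), the receptor chain Il22ra1 (-0.58, adjusted p = 0.0423) and Il10rb (-0.46, adjusted p = 0.0337). A positive difference that did not pass was seen for 3 of the 8. The list's TPM, added up per mouse, is carried by its highest genes and includes Reg3b and Reg3g, so it does not describe these 3 genes. The highest sum was 56001 with the ERBB3-dIE label and 25683 with the Erbb3-FF label, and the lowest sums were 10280 and 8733. By litter the sum ran from 18559.5 to 56001 TPM in litter A and from 8733 to 26665 TPM in litter B. Between litters 1 gene of the list was called higher and 2 lower in litter B (limma). Whether this signalling differed between genotypes or litters was not tested.

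The calls differed in how far they rested on single libraries. With each library left out in turn, Galnt12 kept a log2 difference of 0.65 to 0.82 and B4galt6 one of -0.69 to -0.55, both past the threshold in all 12 fits. St3gal6 kept 0.95 to 1.21, St3gal3 0.75 to 0.98 and Gcnt4 -0.75 to -0.55, but each lost its call in 6 of the 12 fits, with adjusted p-values up to 0.0896, 0.0762 and 0.0803. The call was lost for St3gal6 without ERBB3-dIE mice 3, 4, 5 or 6 or Erbb3-FF mice 2 or 6, for St3gal3 without ERBB3-dIE mice 3, 4, 5 or 6 or Erbb3-FF mice 1 or 6, and for Gcnt4 without ERBB3-dIE mice 1, 4 or 5 or Erbb3-FF mice 2, 4 or 6.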

How the data were processed

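RNA from ileal mucosal scrapings of 12 mice was sequenced as single-end reads of 75 bases with a strand-marking mRNA kit, per the labels' protocols. The deposited TPM have 1 column per library and sum to the same total in each, so depth is unknown and no counting interval is given. The submitters' processing notes name CASAVA, Salmon 1.10.0, DESeq2 and GRCm39. The authors deposited a log2 fold change with its SE, whose sign matches ERBB3-dIE over Erbb3-FF TPM, an adjusted p-value and a mean normalized count signal over all libraries, per the file headers; the design behind them is not given in the sources used here.

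From the TPM, limma 3.58.1 in R 4.3.3 (linear fit, moderated variance with a trend) was run on log2(TPM + 0.5) for the 12605 genes with 1 TPM or more in at least 6 libraries, with genotype and litter as terms and, in a second model, their product. Benjamini-Hochberg adjustment ran over all 12605 genes. Genotype differences are ERBB3-dIE minus Erbb3-FF and litter differences B minus A. Errors in the text after a difference are SE and after a mean SD. Exact permutation tests were 2-sided and unadjusted, over all 924 relabellings of 6 against 6. They took the plain difference of mean log2(TPM + 0.5) and ignored litter, unlike the limma differences printed beside them. In simulated data on the 12605 genes the genotype test recovered 27.6%, 73.2% and 92% of genes changed by 0.5, 1 and 2 on the log2 scale. Both simulations used independent normal noise and few changed genes, so the rates need not hold for the real libraries. Promoters came from RefSeq on GRCm38.p6, another build than the authors', and serve only for sequence.

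The members and gene lists were chosen with earlier results of these data known. Values in every sample were given for members past the genotype or litter threshold and for the highest of each role. Of each other list, up to 4 called genes by size were named, otherwise the one with the lowest p. Members named beyond these were picked after their values were seen. Separate mice are labelled as separate samples. Tools also used were Python 3.11.15 with pandas 2.3.3 and scipy 1.17.1.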

Additional observations from a re-analysis of the deposited data

Results flagged for a closer look

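In 3 of 86 sets of 6 mice, 1 mouse stood apart from the other 5 of its genotype. The gap was more than 0.625 of the set's range, both taken on the log2 scale of the limma fits and not on TPM. Chance alone flags about 1 set in 20. The levels that follow are in TPM, where the same gap can be a smaller part of the range. B3gnt5, the enzyme that starts lacto-series glycolipids, was 3.46 TPM in Erbb3-FF mouse 1 and 1.00 to 1.47 TPM in the other Erbb3-FF mice. B4galt3 was 34.4 TPM in ERBB3-dIE mouse 1 and 22.9 to 25.0 TPM in the other ERBB3-dIE mice. St6galnac1, which makes the sialyl-Tn antigen, was listed at 0 TPM in Erbb3-FF mouse 4 and at 9.76 to 19.0 TPM in the other Erbb3-FF mice, and was listed at 0 in ERBB3-dIE mouse 3 too.

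For B3gnt5 and St6galnac4, every ERBB3-dIE mouse lay below every Erbb3-FF mouse in litter B and above every one in litter A. B3gnt5 had 0.498, 0.249 and 1.25 TPM in ERBB3-dIE and 3.46 and 1.43 TPM in Erbb3-FF mice of litter B, and 2.94, 1.66 and 2.47 TPM in ERBB3-dIE and 1.31, 1.47, 1.00 and 1.31 TPM in Erbb3-FF mice of litter A. Its interaction term, the litter B effect of genotype less the litter A one, was -2.01 on the log2 scale (limma interaction, adjusted p = 0.247). St6galnac4 had 0.789, 0.920 and 1.44 TPM in ERBB3-dIE and 1.93 and 2.58 TPM in Erbb3-FF mice of litter B, and 1.47, 2.04 and 1.54 TPM in ERBB3-dIE and 0.692, 0.778, 1.17 and 1.02 TPM in Erbb3-FF mice of litter A, a difference of -1.47 (limma interaction, adjusted p = 0.226). Neither passed the threshold.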

How the results depend on the processing

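The main analysis called 3 members higher and 2 lower in ERBB3-dIE mice, and 1 higher and 5 lower in litter B. Other pseudocounts, a filter of 5 TPM and robust variance kept the 4 counts within 1.5 times of these. The filter of 5 TPM left 34 members and dropped St3gal3, so its 3 higher members are not the same 3 genes. Members higher and lower in ERBB3-dIE mice numbered 9 and 2 with upper quartile scaling, 8 and 2 with median-of-ratios scaling, 4 in the lower direction with mitochondrial and ribosomal sequences removed, and 5 higher with library weights. Library weights called 344 of all 12605 tested genes higher and 736 lower. Members higher and lower numbered 1 and 1 with no filter, 1 and 0 with no litter term, and 1 and 1 without Erbb3-FF mice 5 and 6. Over all tested genes these fits called 105 and 245 of 27814, 87 and 156 of 12605, and 83 and 368 of 12605. In litter A alone, in litter B alone, and with a goblet cell, enterocyte or B cell marker level as a covariate, both member counts were 0 in limma. In those fits, in that order, 24, 9, 2, 6 and 16 members had an unadjusted p under 0.05. The share of all tested genes at that bound is not given for them, so these counts cannot be read alone. At the adjusted threshold those fits called 4, 6, 0, 23 and 29 of all tested genes higher and 2, 9, 0, 15 and 38 lower. A smooth muscle marker level gave 4 higher and 4 lower, beside 238 and 587 of all 12605 tested genes. The authors' deposited test gave 12 higher and 4 lower, beside 5.07% and 7.51% of its genes. With the goblet covariate the Galnt12 difference was -0.090 with an SE of 0.488, while those of B4galt6, Gcnt4 and St3gal3 were -1.11, -1.06 and 1.07. With the B cell covariate the differences were 0.65 for Galnt12, 1.095 for St3gal6, 0.86 for St3gal3, -0.64 for Gcnt4 and -0.68 for B4galt6. The causes were not tested.

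Leaving out 1 library at a time gave 1 to 5 members higher and 1 to 2 lower in ERBB3-dIE mice. Over all 12605 tested genes these fits called 95 to 213 higher and 190 to 621 lower. The count higher was 5 without ERBB3-dIE mouse 2, and 1 without ERBB3-dIE mice 3, 4 or 6 or Erbb3-FF mouse 6. The count lower was 1 without ERBB3-dIE mice 1, 4 or 5 or Erbb3-FF mice 2, 4 or 6. For litter B it gave 0 to 5 higher and 1 to 10 lower, the maximum of both without Erbb3-FF mouse 3, and 0 higher with 1 or 2 lower without any other library except ERBB3-dIE mouse 3. Over all 12605 tested genes these litter fits called 97 to 1982 higher and 4 to 1077 lower, again with both maxima without Erbb3-FF mouse 3. Members higher and lower in litter B numbered 5 and 9 with library weights, 0 and 9 with upper quartile scaling, 8 lower with median-of-ratios scaling, 0 and 8 with mitochondrial and ribosomal sequences removed, 0 and 1 with no filter, and 0 and 0 without Erbb3-FF mice 5 and 6, where Fut2 was at -3.50 (limma, adjusted p = 0.0658) and 13 members had an unadjusted p under 0.05. Over all tested genes the litter calls, higher and lower, were 1847 and 903 with library weights, 511 and 367 with upper quartile scaling and 447 and 323 with median-of-ratios scaling. They were 421 and 287 with mitochondrial and ribosomal sequences removed, 219 and 26 with no filter, and 4 and 3 without Erbb3-FF mice 5 and 6. No member passed the interaction test in limma under any alternative run.

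Mice of both genotypes share the numbers 1 to 6, but the labels tie no number to a shared day or batch. The deviations of same-numbered mice correlated at 0.0739 to 0.357, with 5 of 6 pairs over 0.1, and 4 of 12 mice correlated best with their own number, so a pairing was not established. With mouse number as a replicate block 1 member was higher (Galnt12) and 1 lower (Gcnt4), while B4galt6 (-0.55; limma, adjusted p = 0.0688), St3gal6 (0.91, adjusted p = 0.073) and St3gal3 (0.74, adjusted p = 0.109) did not pass with it. Over all 12605 tested genes the fit with this block called 68 higher and 148 lower. Depth is not kept in TPM, so the counting error of members under 3 TPM, St3gal3 among them at a mean of 2.99 TPM, is unknown, and 6 mice per genotype limit the precision.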
